A study of Mus musculus with 2 samples.

Results

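The Hedgehog pathway genes described here are 9 genes that were matched by symbol in both expression tables, out of 22558 genes listed in each. They are the ligands Shh, Ihh and Dhh, the receptor Ptch1, the signal transducer Smo, the transcription factors Gli1, Gli2 and Gli3, and the inhibitor Sufu. All 9 were found. The cells were taken from breast tumours of mice of the inbred strain FVB, and were sorted by flow cytometry directly after dissociation, with no treatment. One group held tumour-initiating cells (TIC), and the other held non-tumorigenic cells (NTC). The sort markers, the tumour model, and the number and age of the animals are given in none of the sources used here. Each group had 1 library, so there is no SD and no test, and each difference below is one between these 2 libraries.

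Hedgehog ligands are secreted proteins that bind Patched receptors on other cells. Without ligand, Patched keeps Smoothened (the product of Smo) inactive, and Sufu holds the Gli proteins in the cytoplasm, where Gli3 and in part Gli2 are cut into repressors of transcription. With ligand, Smoothened enters the primary cilium and full-length Gli proteins activate their targets, among them Ptch1 and Gli1 themselves, which serve widely as readouts of the pathway. In the embryonic mouse mammary gland, repression of Hedgehog targets by Gli3 is needed for the buds to form.

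Levels are in FPKM, fragments per kilobase of transcript and per unit of mapped fragments, so that transcript length is taken into account. The RNA was amplified, which can shift a gene's share of reads with its length and base composition. Ratios, shares and orders of level between different genes are therefore rough. A ratio is log2((TIC FPKM + 1)/(NTC FPKM + 1)), with 1 FPKM added so that values near 0 do not dominate, and it understates the difference for low genes. A gene with a mean of at least 1 FPKM over both libraries is called measured, and a log2 ratio past 1 in either direction is called at least 2-fold. The median log2 ratio over the 12004 measured genes was -0.16. From the steps between low values, the depth was estimated roughly: a transcript of 1 kb at 1 FPKM would hold 21.0 reads in TIC and 21.6 in NTC. Such estimates, and the read numbers below, cover counting only. An exact 0 is not read as absence, because Ndufs5, a subunit of respiratory complex I that respiring cells use, was also listed at 0 in both libraries.

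Of the 9 Hedgehog genes, 6 were measured, and 3 of these (Gli3, Dhh and Gli2) had a TIC level at least 2-fold above that in NTC, while 0 were lower by as much. Of all measured genes, 14.6% were higher in TIC by this threshold and 13.8% were lower. The other 3 measured members, Smo, Sufu and Ptch1, lay within 2-fold. Relative to the median of all measured genes, the log2 ratio was 2.32 for Gli3, 2.03 for Dhh, 1.96 for Gli2, 0.68 for Smo and 0.65 for Sufu. Shh, Ihh and Gli1 were below the threshold for measured genes in both libraries. Dhh and Gli2 passed that threshold through their level in TIC alone, so a gene of this kind had to differ to be counted.

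**Figure D1:**
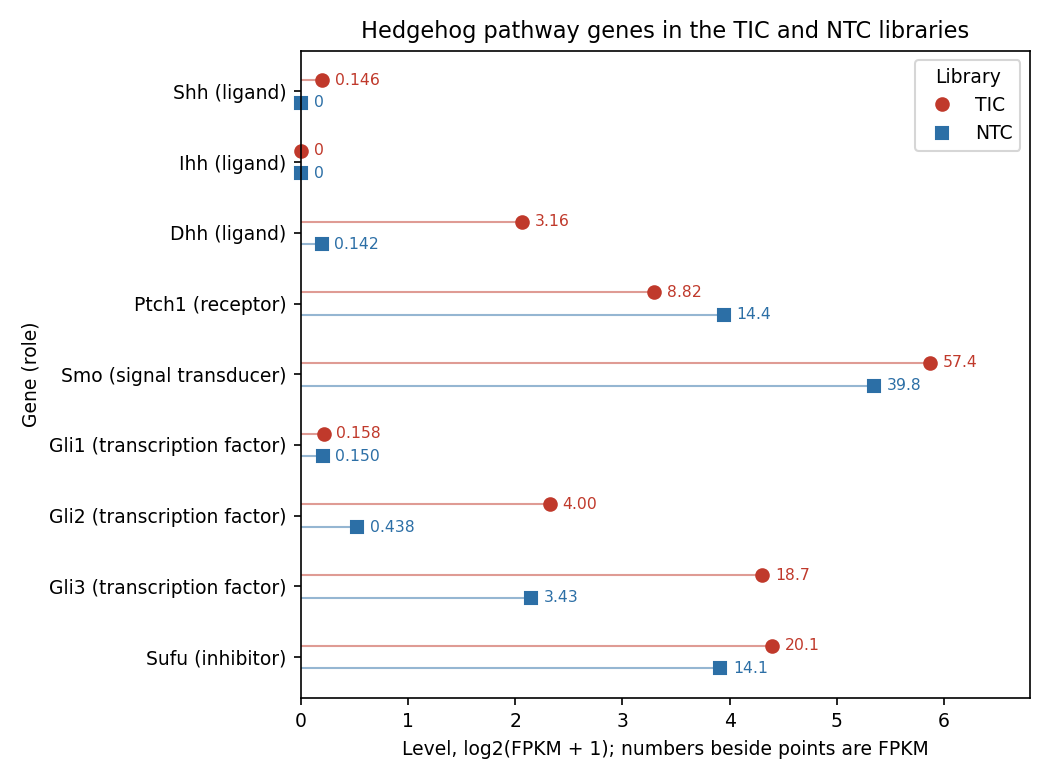
Level of each of the 9 Hedgehog pathway genes in the TIC library (circles) and the NTC library (squares), on the log2(FPKM + 1) scale, with the FPKM printed beside each point and the role of each gene in brackets. Gli2, Gli3 and Dhh lie well to the right in TIC, Smo has the highest level of the 9 in both libraries, and Ptch1 is the gene whose NTC point lies to the right of its TIC point.

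The ligands were low or listed at 0, apart from Dhh in TIC. Dhh, the ligand known from Schwann cells and the testis, had 3.16 FPKM in the TIC library against 0.142 FPKM in NTC, a log2 ratio of 1.87 (chromosome 15, 98723458 to 98728971, build mm9). With the longest RefSeq-matched transcript of 4242 bases these levels would rest on about 282 reads in TIC and 13 in NTC. The gene model in the files spans 5.51 kb, so the transcript used by the authors may have been shorter and the reads fewer. Shh, the most studied ligand, had 0.146 FPKM in TIC, about 9 reads, and was listed at 0 in NTC. Its locus in the files (chromosome 5, 28783380 to 29045749) spans 262.4 kb and is shared with the RIKEN transcript 9530036O11Rik, which makes the Shh value uncertain. Ihh, which acts in cartilage and bone, was listed at 0 in both libraries (chromosome 1, 74991892 to 74998225). Dhh was thus the sole ligand of the 3 with a level above 1 FPKM, and it had that level in TIC.

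Because these are bulk samples, a lower level can mean fewer cells of a type or less RNA per cell, and these cannot be told apart. Since Dhh is known from Schwann cells, a list of 8 Schwann and nerve markers was set beside it. Its summed level was 425.3 FPKM in TIC and 308.3 FPKM in NTC, most of it from Sox10 (345.8 FPKM in TIC and 288.1 FPKM in NTC), a factor also found in mammary epithelium. Of 5 measured markers, 3 were higher in TIC by the 2-fold threshold and 0 were lower, against 14.6% and 13.8% of all measured genes. Egr2, a factor of myelinating Schwann cells, had 49.6 in TIC against 5.70 FPKM in NTC, and Pmp22, a myelin protein, had 19.2 in TIC against 2.10 FPKM in NTC. Mbp, another myelin protein, went the other way within 2-fold, with 6.47 in TIC against 11.5 FPKM in NTC, and S100b had 0.274 in TIC against 0.378 FPKM in NTC. Their part in the Dhh difference was not tested.

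The receptor Ptch1 had 8.82 FPKM in the TIC library against 14.4 FPKM in NTC, a log2 ratio of -0.65 (chromosome 13, 63612841 to 63666828, build mm9). It was the one measured member with a lower level in TIC, and the difference stayed within 2-fold. Relative to the median of all measured genes its log2 ratio was -0.48. Smo, the membrane protein that Patched restrains, had 57.4 FPKM in the TIC library against 39.8 FPKM in NTC, a log2 ratio of 0.52 (chromosome 6, 29685497 to 29711366). The files describe Smo by several gene identifiers, so its value may combine transcripts. The level of Smo was 6.51 times that of Ptch1 in TIC and 2.77 times in NTC. The level of Smo lay above that of 95.3% of all listed genes in TIC and 92.2% in NTC. That of Ptch1 lay above 70.5% in TIC and 77.7% in NTC. Of the 22558 listed genes, 7345 were at 0 in TIC and 7397 in NTC, which raises these percentages.

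Among the transcription factors, Gli3 and Gli2 were higher in TIC and Gli1 was close to 0 in both libraries. Gli3, the main repressor of the family, had 18.7 FPKM in the TIC library against 3.43 FPKM in NTC, a log2 ratio of 2.16 (chromosome 13, 15555556 to 15821858, build mm9). This ratio exceeded that of 93.2% of measured genes. Gli2, the main activator at the start of signalling, had 4.0 FPKM in the TIC library against 0.438 FPKM in NTC, a log2 ratio of 1.8, above that of 91.2% of measured genes (chromosome 1, 120730638 to 120950196). The Gli2 levels correspond to about 558 reads in TIC and 63 in NTC. Gli1, an activator that is itself a target of the pathway, had 0.158 FPKM in the TIC library against 0.150 FPKM in NTC, about 13 reads in each library (chromosome 10, 126760783 to 126778635). Its locus is shared in the files with Arhgap9, a GTPase-activating protein with 1.06 FPKM in the TIC library against 6.31 FPKM in NTC, so reads of both genes may have been split between them.

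Gli3 made up most of the Gli transcripts in both libraries. Its share of the summed FPKM of Gli1, Gli2 and Gli3 was 81.9% in TIC and 85.4% in NTC. Gli2 accounted for 17.4% in TIC and 10.9% in NTC, and Gli1 for 0.688% in TIC and 3.72% in NTC. The summed Gli level was 22.9 FPKM in TIC and 4.02 FPKM in NTC. Gli3 was thus the most abundant of the 3 in both libraries, and the share of Gli2 was higher in TIC. The small share of Gli1 was lower in TIC because the summed level was higher there. The level of Gli1 itself was close in both, at 0.158 FPKM in TIC and 0.150 FPKM in NTC.

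Sufu, the inhibitor that binds Gli proteins, had 20.1 FPKM in the TIC library against 14.1 FPKM in NTC, a log2 ratio of 0.48 (chromosome 19, 46471408 to 46561150, build mm9). Its difference was near that of Smo. Set against the summed Gli level, Sufu was 0.877 times as high in TIC and 3.50 times as high in NTC. In order of level, the genes in TIC were Smo, Sufu, Gli3, Ptch1, Gli2, Dhh, Gli1 and Shh, with Ihh listed at 0. In NTC the order was Smo, Ptch1, Sufu, Gli3, Gli2, Gli1 and Dhh, with Shh and Ihh listed at 0. With 1 library per group, no spread can show which neighbours in these orders differ.

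**Figure D2:**
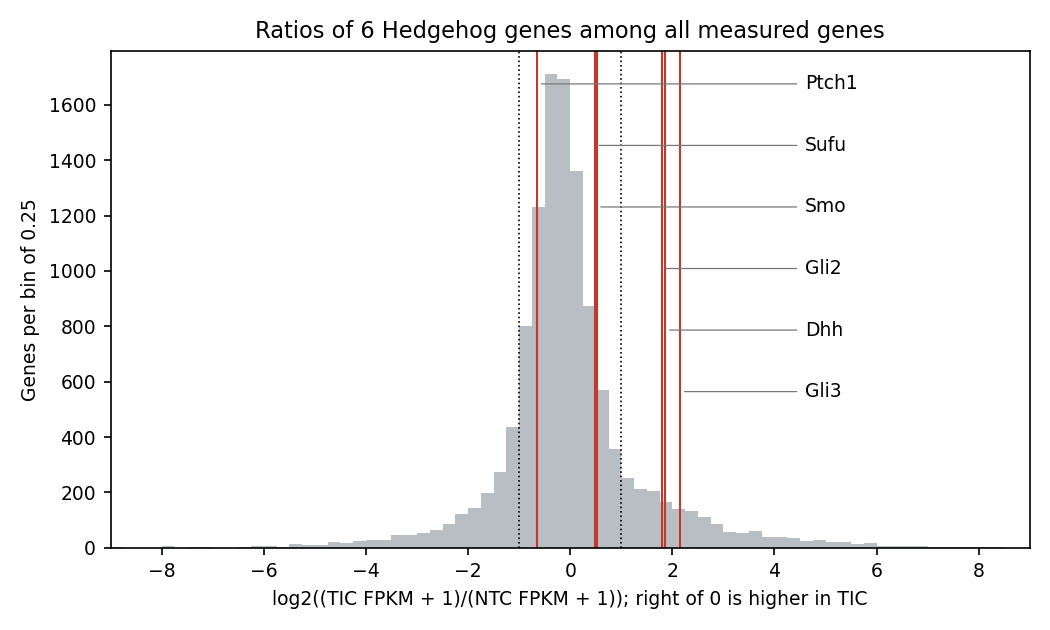
Number of measured genes (12004 in all, bins of 0.25) by log2 ratio of TIC to NTC, with the 6 measured Hedgehog genes as vertical lines and log2 ratios of -1 and 1 dotted. Ptch1 lies left of 0 at -0.65, Sufu and Smo lie close together at 0.48 and 0.52, and Gli2, Dhh and Gli3 lie in the right shoulder between 1.8 and 2.16.

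The promoters of Dhh, Gli2 and Gli3, the genes past 2-fold in TIC, and of Ptch1 are shown because Ptch1 differed from the first 3 in direction. The windows are those of RefSeq in build GRCm38.p6, from 250 bases before to 50 bases after the start of the gene, read 5′ to 3′ along the gene's strand. Capitals mark GC boxes (GGGCGG on either strand), which Sp family factors bind.
Dhh, chr15:98898491-98898790, minus strand: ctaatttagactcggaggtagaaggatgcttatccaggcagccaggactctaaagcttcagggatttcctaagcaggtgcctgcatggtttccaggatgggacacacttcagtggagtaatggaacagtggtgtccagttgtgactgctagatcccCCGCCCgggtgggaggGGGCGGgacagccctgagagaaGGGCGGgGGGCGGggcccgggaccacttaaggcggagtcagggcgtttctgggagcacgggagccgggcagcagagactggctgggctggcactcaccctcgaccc
Gli2, chr1:119053570-119053869, minus strand: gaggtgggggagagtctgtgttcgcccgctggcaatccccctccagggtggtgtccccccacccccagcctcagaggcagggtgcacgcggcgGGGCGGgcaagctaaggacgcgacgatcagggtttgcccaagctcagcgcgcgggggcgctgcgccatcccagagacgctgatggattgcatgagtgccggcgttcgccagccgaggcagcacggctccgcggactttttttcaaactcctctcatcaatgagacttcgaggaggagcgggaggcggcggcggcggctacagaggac
Gli3, chr13:15463473-15463772, plus strand: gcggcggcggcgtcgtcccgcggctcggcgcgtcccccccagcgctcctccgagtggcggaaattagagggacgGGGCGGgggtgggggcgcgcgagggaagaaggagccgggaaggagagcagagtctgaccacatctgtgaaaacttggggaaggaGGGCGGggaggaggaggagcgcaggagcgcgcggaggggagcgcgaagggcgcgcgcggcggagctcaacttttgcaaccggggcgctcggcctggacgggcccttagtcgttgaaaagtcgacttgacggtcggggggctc
Ptch1, chr13:63565686-63565985, minus strand: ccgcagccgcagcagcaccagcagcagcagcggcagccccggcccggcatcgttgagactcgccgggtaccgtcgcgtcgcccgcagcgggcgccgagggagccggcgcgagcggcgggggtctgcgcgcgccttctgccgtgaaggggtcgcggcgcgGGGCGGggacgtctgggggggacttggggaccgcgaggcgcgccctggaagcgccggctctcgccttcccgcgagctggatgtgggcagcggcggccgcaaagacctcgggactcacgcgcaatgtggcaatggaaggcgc

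Of the 9 genes, 7 had a window in the RefSeq table. The letters GGGCGG on either strand were present in 6 of these 7 windows, all but that of Smo, against 35.7% of all 32851 promoter windows. They were also in 60 of the 84 windows found for genes of the wider pathway lists described below. The windows of the 7 genes were 56.3% to 76.3% G and C against a median of 52.7% over all windows, and the part of this base composition in the GC box count was not tested. The Dhh window held 4 GC boxes, the Gli3 window 2, and the Gli2 and Ptch1 windows 1 each. The GLI binding letters GACCACCCA, searched on both strands, occurred in 0 of the 7 windows and in 0.253% of all windows. The shorter CCACCCA, which lies within it, also occurred in 0 of the 7, against 9.30% of all windows. TATAAA occurred in 0 of the 7 and in 13.6% of all windows. CCAAT occurred in 1 of the 7, that of Sufu, and in 37.4% of all windows. Ptch1 and the 3 genes higher in TIC thus shared the GC box, and the other letters searched were in none of their 4 windows.

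The wider pathway was read from 5 further gene lists. Beside the 9 genes they held 99 measured genes, of which 25 (25.3%) passed the 2-fold threshold upward in TIC and 7 (7.07%) downward, around a median log2 ratio of 0.098. Over all measured genes the shares were 14.6% upward and 13.8% downward, around a median of -0.16. The 99 and the 25 include Tgfbr3, which was listed for ligand release but is not known for it. Some of the 25, such as Kif7 and Gpr161, passed the threshold for measured genes through their level in TIC alone. Some of the 7, such as Scube1 and Angpt1, passed it through their level in NTC alone. The lists are described in turn below, from the release of the ligand to the targets of the Gli proteins.

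Genes that process and release the ligand differed in both directions. Disp1, which frees the lipid-bearing ligand from the producing cell, had 9.55 FPKM in the TIC library against 2.29 FPKM in NTC (log2 ratio 1.68). Hhat, which attaches palmitate to the ligand, had 6.98 in TIC against 3.95 FPKM in NTC (0.69). The secreted Scube proteins, which help release, were opposed: Scube3 had 5.88 FPKM in the TIC library against 0.0683 FPKM in NTC (2.69), whereas Scube1 had 0.0487 in TIC against 9.50 FPKM in NTC (-3.32). Scube2 had a listed 0 in TIC and 0.175 FPKM in NTC, and Disp2 was listed at 0 in both. Thus the TIC library carried Scube3 and the NTC library Scube1. The list as written also held Tgfbr3, a TGF-beta co-receptor that is not known for ligand release, with 99.1 in TIC against 7.35 FPKM in NTC. With it, 3 of 5 measured genes were higher in TIC by the 2-fold threshold and 1 was lower. Without it, 2 of 4 were higher and 1 lower. Of all measured genes, 14.6% were higher and 13.8% lower.

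Proteins that bind the ligand at the cell surface, other than Ptch1, had 3 of 5 measured members higher in TIC by the 2-fold threshold and 0 lower. Of all measured genes, 14.6% were higher and 13.8% lower. Among the 3 higher genes were Gpc3, a glypican that competes with Patched for ligand, with 41.6 FPKM in the TIC library against 0.0463 FPKM in NTC (log2 ratio 5.35), and the co-receptor Gas1, with 12.1 in TIC against 4.0 FPKM in NTC (1.39). The co-receptors Boc and Cdon did not share this difference. Boc had 29.7 FPKM in the TIC library against 51.0 FPKM in NTC (-0.76), and Cdon had 4.24 in TIC against 5.36 FPKM in NTC (-0.28). The median log2 ratio was 1.39, or 0.55 over the genes with a level above 0 in both libraries. It was 0.92 with 5 FPKM added, 2.92 over genes that averaged 5 FPKM or more and 0.051 over all genes of the list. Hhip, a decoy receptor that the pathway induces, had 0.0734 FPKM in TIC but a listed 0 in NTC. Gpc5 was listed at 0 in both libraries, and the endocytic receptor Lrp2 had a listed 0 in TIC and 0.0318 FPKM in NTC.

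Of 27 measured genes that carry or tune the signal between Smo and the Gli proteins, 20 lay within 2-fold, and the median log2 ratio was 0.080. Higher in TIC past 2-fold were 5 (18.5%), near the 14.6% of all measured genes. Lower were 2 (7.41%), against 13.8% of all measured genes. The 5 higher genes are known for roles at the primary cilium. Evc and Evc2, which sit together at the base of the cilium and bind Smoothened, had 6.51 in TIC against 0.169 FPKM in NTC (log2 ratio 2.68) and 9.94 in TIC against 0.884 FPKM in NTC (2.54). Their partner Iqce had 7.08 FPKM in the TIC library against 2.71 FPKM in NTC (1.12). Kif7, the kinesin that organises Gli proteins at the ciliary tip, had 2.70 in TIC against 0.312 FPKM in NTC (1.49), and Gpr161, a ciliary receptor that restrains the pathway through protein kinase A, had 2.77 in TIC against 0.481 FPKM in NTC (1.35). Arrb1, a beta-arrestin, was lower in TIC with 26.7 in TIC against 80.8 FPKM in NTC (-1.56), and so was Adrbk1, a kinase that acts on Smoothened, with 11.2 in TIC against 29.8 FPKM in NTC (-1.33). The files describe Evc, Arrb1 and Adrbk1 by several gene identifiers. Zic1 and Zic2 were listed at 0 in both libraries.

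The cilium itself showed little difference as a group. All 45 genes of the primary cilium and intraflagellar transport were measured, 38 of them within 2-fold, with a median log2 ratio of 0.042. At least 2-fold higher in TIC were 6 genes (13.3%), close to the 14.6% among all measured genes. Lower past the threshold was 1 gene (2.22%), against 13.8% of all measured genes. Tulp3, which brings receptors such as Gpr161 into the cilium, had 24.8 FPKM in the TIC library against 7.23 FPKM in NTC (log2 ratio 1.65). The transport subunits Ift122 and Ift80 had 5.55 in TIC against 1.25 FPKM in NTC (1.54) and 7.39 in TIC against 1.95 FPKM in NTC (1.51). Ahi1, of the ciliary base, had 4.28 in TIC against 1.05 FPKM in NTC (1.37) and is described by several identifiers, and Ttbk2, the kinase that starts cilium growth, had 7.06 in TIC against 2.74 FPKM in NTC (1.11). Tmem216, of the transition zone, was the lower gene, with 5.65 FPKM in the TIC library against 15.9 FPKM in NTC (-1.34).

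Genes reported as GLI targets went apart in both directions. Of 30 symbols 29 were found and 19 were measured, of which 9 were higher in TIC by the 2-fold threshold and 3 lower, around a median log2 ratio of 0.25, or 0.057 over the genes with a level above 0 in both libraries. It was 1.55 over genes that averaged 5 FPKM or more and 0 over all genes of the list, so it depends on the filter. Of the 2 targets used most as readouts of the pathway, Ptch1 lay within 2-fold. Gli1 was below the threshold for measured genes, so it could not be among the 9. The cyclin Ccnd2 had 98.2 FPKM in the TIC library against 0.133 FPKM in NTC (log2 ratio 6.45), while its relative Ccnd1 had 326.8 in TIC against 691.5 FPKM in NTC (-1.08). Mycn, a Myc family factor, had 67.9 in TIC against 0.255 FPKM in NTC (5.78), the Notch ligand Jag2 72.1 in TIC against 0.228 FPKM in NTC (5.90), the zinc finger factor Osr1 77.6 in TIC against 0.346 FPKM in NTC (5.87), and Pthlh, the parathyroid hormone-like hormone, 28.7 in TIC against 0.0707 FPKM in NTC (4.80). Lower in TIC, beside Ccnd1, were the vessel ligand Angpt1, with 0.140 in TIC against 5.97 FPKM in NTC (-2.61), and the kinase Cdk6, with 8.88 in TIC against 34.3 FPKM in NTC (-1.84). Foxf1a, Foxf2, Foxl1, Nkx2-2 and Nkx6-1, targets in embryonic gut, lung and neural tube, were listed at 0 in both libraries. Ccnd2, Mycn, Jag2, Osr1 and Pthlh passed the threshold for measured genes through their level in TIC alone. Angpt1 passed it through its level in NTC alone. Many of the reported targets are controlled by other pathways as well.

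**Figure D3:**
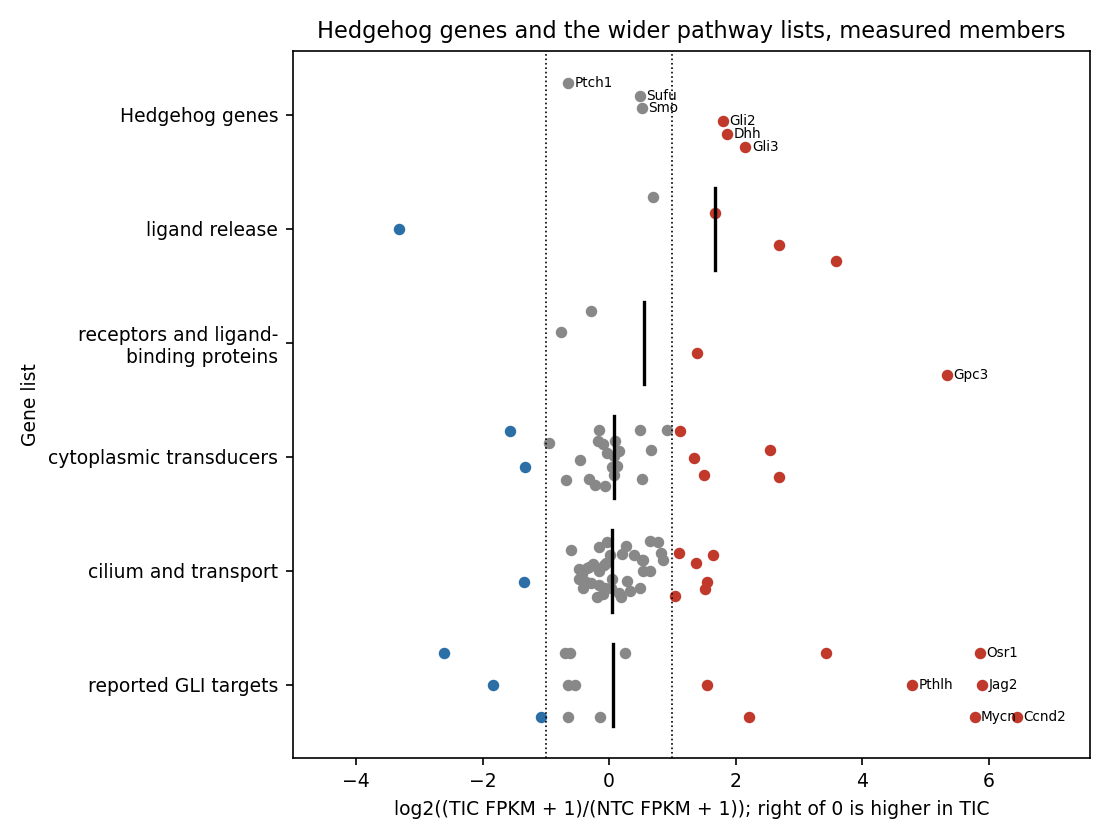
log2 ratio of TIC to NTC for each measured gene of the 9 Hedgehog genes and of the 5 wider lists (red at least 2-fold higher in TIC, blue at least 2-fold lower, grey within 2-fold; black bars are list medians, and height within a list carries no meaning). Genes listed at 0 in either library are not drawn and not in the medians. Genes of the cilium and of the transducers gather near 0, with medians of 0.042 and 0.080, while the reported GLI targets spread from -2.61 for Angpt1 to 6.45 for Ccnd2.

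Markers of mammary lineages also differed between the libraries. All 12 basal markers were higher in TIC by the 2-fold threshold, against 14.6% of all measured genes. Their summed level was 6507 FPKM in TIC and 45.5 FPKM in NTC. Acta2, smooth muscle actin, had 2101 in TIC against 6.13 FPKM in NTC and the matrix protein Sparc 1714 in TIC against 2.71 FPKM in NTC. Of 12 luminal markers 11 were at least 2-fold lower in TIC, against 13.8% of all measured genes. The 12 summed to 58.4 FPKM in TIC and 3531 FPKM in NTC. The keratin Krt19 had 2.56 in TIC against 1176 FPKM in NTC and Krt18 5.45 in TIC against 713.3 FPKM in NTC. The markers of the sort are not known here, and the part of these lineage markers in the levels of Gli2, Gli3 and Dhh was not tested.

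Several fibroblast markers were higher in TIC, while the summed levels of endothelial, leukocyte and adipocyte markers were below 4 FPKM in each library. Of 13 fibroblast and stromal markers 7 were measured. Of these 5 were higher in TIC past 2-fold and 2 lower, against 14.6% and 13.8% of all measured genes. The summed level of the 13 was 182.1 FPKM in TIC and 23.0 FPKM in NTC. Most of the sum was Dcn, the matrix proteoglycan decorin (151.8 in TIC against 1.51 FPKM in NTC), while Postn, a matrix protein of stroma, had 3.98 in TIC against 10.8 FPKM in NTC. Also higher in TIC were the collagen gene Col1a2, with 9.56 in TIC against 0.0119 FPKM in NTC, and Pdgfra and Pdgfrb, receptors of stromal cells, with 8.83 in TIC against 0.513 FPKM in NTC and 2.44 in TIC against 0.0701 FPKM in NTC. The surface protein gene Thy1 had 3.06 FPKM in TIC but a listed 0 in NTC. Col6a3, another collagen gene, was lower in TIC, with 1.18 in TIC against 9.79 FPKM in NTC. The fibroblast genes Dpt and Fap were listed at 0 in both libraries, Col1a1 had 0.459 in TIC against 0.339 FPKM in NTC, and Col3a1 had 0.221 FPKM in TIC but a listed 0 in NTC. The part of fibroblast markers in the levels of the Hedgehog genes was not tested. No endothelial marker of 8 was measured (summed level 3.21 FPKM in TIC and 1.37 FPKM in NTC), with Kdr at 1.61 FPKM in TIC and listed at 0 in NTC and Pecam1 at 0.584 in TIC against 0.223 FPKM in NTC. Of the 9 leukocyte markers found, 2 were measured, Lyz2 (1.56 in TIC against 0.727 FPKM in NTC) and Cd68 (0.828 in TIC against 1.38 FPKM in NTC), and Ptprc and Cd3e were listed at 0 in both. The 6 adipocyte markers summed to 0.131 FPKM in TIC and 0.0798 FPKM in NTC, with Lep at 0.0864 FPKM in TIC and Fabp4 at 0.0798 FPKM in NTC, each listed at 0 in the other library.

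The pseudocount decided how many of the Hedgehog genes passed the 2-fold threshold. With 5 FPKM added in place of 1, the log2 ratio was 1.49 for Gli3, 0.73 for Gli2 and 0.67 for Dhh, so 1 gene passed in place of 3. With 0.1 FPKM added, the log2 ratios were 2.42 for Gli3, 2.93 for Gli2 and 3.75 for Dhh. A change of pseudocount cannot change the direction of a ratio. Centring and scaling left the direction of each of the 6 measured genes the same. Smo, Sufu and Ptch1 stayed within 2-fold in all 5 ways of computing the ratio.

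**Figure D4:**
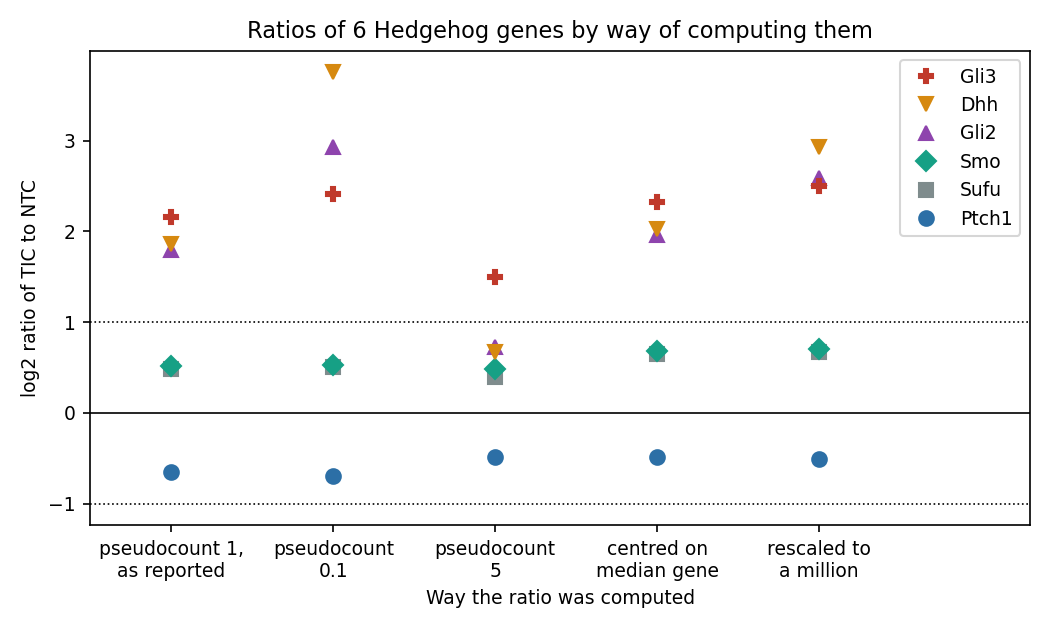
log2 ratio of TIC to NTC of the 6 measured Hedgehog genes, computed with 1, 0.1 or 5 FPKM added, centred on the median gene, or after scaling both libraries to the same sum (dotted lines at -1 and 1). Gli3 stays above 1 in each, between 1.49 and 2.50, whereas Gli2 and Dhh drop below 1 with 5 FPKM added; Ptch1 stays below 0 and Smo and Sufu between 0 and 1.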

How the data were processed

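RNA from 1 TIC and 1 NTC library was amplified from a small input and sequenced, per the labels' protocols. Amplification can shift a gene's share of reads with its length and base composition. The authors deposited 1 FPKM value per gene and library, which are the values used, and no counts were used. Per the submitters' processing notes, TopHat 1.4.0, CASAVA 1.8.2, Cuffdiff and Cufflinks were used with build mm9. Their settings are not stated there. A human build is named above the loci, but of 20009 symbols shared with the RefSeq annotation of GRCm38, 99.7% lay on the same mouse chromosome. Starts lay within 1 kb for 4.40%, so loci are given as mm9, counted from 1.

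The ratio, the threshold for measured genes and the 2-fold threshold are defined with the results. No count model or test was used, since FPKM are not counts and each group had 1 library. Depth was estimated from odorant and pheromone receptor genes shorter than 1.5 kb, as the median of FPKM × kb between 0.035 and 0.065. This was 0.0475 in TIC (22 genes) and 0.0463 in NTC (38 genes), and the window limits its precision. Reads per gene used the longest GENCODE M21 transcript with a RefSeq record.

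The members and lists were chosen with earlier results of these data known. All 9 members are named, whatever their values. Named in the wider lists are all genes of lists of up to 8, otherwise up to 5 in each direction past 2-fold, and in marker lists the 2 with the highest mean. Ndufs5, Arhgap9, further markers, the Fox, Nkx and Zic genes and the chromosomal neighbours were named after their values were seen. Some genes that the rule takes are counted in their lists but not reported here. The alternatives were other pseudocounts, filters and scalings. The ratio step was tested on simulated data. Python 3.11.15, pandas 2.3.3, numpy 2.4.6 and matplotlib 3.10.9 were used.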

Additional observations from a re-analysis of the deposited data

How the results depend on the processing

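With 5 FPKM added, the log2 ratio fell below the 2-fold threshold for Dhh (0.67) and Gli2 (0.73), leaving 1 member at least 2-fold higher in TIC in place of 3. With genes of a mean of at least 5 FPKM there was also 1. No setting gave a member at least 2-fold lower. In the wider lists, 5 FPKM added left 2 transducers and 1 cilium gene higher and 0 cilium genes lower, in place of 5, 6 and 1. A mean of at least 5 FPKM left 1 transducer and 2 cilium genes higher and 0 ligand release genes lower, since fewer genes were then measured. Over all measured genes, 1749 were higher and 1658 lower as reported, against 1086 and 921 with 5 FPKM added and 1108 and 1175 at a mean of at least 5 FPKM. With Tgfbr3, the median log2 ratio of ligand release genes was 1.68 as reported, 0.997 with 5 FPKM added and 0.69 with no filter. Without Tgfbr3 it was 1.18, with the settings otherwise as reported. The median of transducers was 0.080 as reported and -0.050 at a mean of at least 5 FPKM. Of 144 values recomputed under the alternatives, 125 kept their direction and their side of the threshold or stayed within 1.5 times the count. The 144 include counts over all genes, and a gene's direction was fixed under the other pseudocounts. The total is therefore no measure of how firm the results are. The alternative without Tgfbr3 was chosen after seeing the data. No replicate could be left out, and no paired analysis was possible because each group has 1 library. The levels of Gli1 and Shh, at about 9 to 13 reads, and of Dhh in NTC, at about 13, are limited by depth.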

Other observations

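The 3 Gli genes lie beside genes of the inhibin beta family, which encode subunits of activins and inhibins, and the neighbours of Gli2 and Gli3 did not follow them. They were picked out after their values were seen. Inhba is the next listed gene after Gli3 on chromosome 13, at a distance of 284.5 kb in build mm9. It had 6.09 FPKM in the TIC library against 6.16 FPKM in NTC, beside the 18.7 in TIC against 3.43 FPKM in NTC of Gli3. Inhbb is the next listed gene after Gli2 on chromosome 1, at 361.8 kb. It had 4.95 FPKM in the TIC library against 82.3 FPKM in NTC, the opposite direction to Gli2 (4.0 in TIC against 0.438 FPKM in NTC). Gli1 itself was near 0 in both libraries. Inhbe, next to it on chromosome 10 at 7.82 kb, was listed at 0 in both libraries, and Inhbc behind it had a listed 0 in TIC and 0.0275 FPKM in NTC.

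The difference in Dhh was not shared by the genes around it. The nearest measured genes on one side, Rhebl1 (1.32 FPKM in the TIC library against 1.22 FPKM in NTC) and Mll2 (40.2 in TIC against 36.5 FPKM in NTC), and those on the other, Lmbr1l (2.18 in TIC against 1.68 FPKM in NTC) and Tuba1b (256.5 in TIC against 373.2 FPKM in NTC), were within 2-fold. Wnt1, a secreted Wnt ligand and mouse mammary oncogene, lies 99.2 kb from Dhh on chromosome 15. It had 0.220 FPKM in the TIC library against 550.4 FPKM in NTC, the opposite direction to Dhh. The tumour model is not known here, and whether the Wnt1 reads came from the gene at this locus was not tested. Beside Ihh, which was listed at 0 in both libraries, Wnt6 had 27.8 FPKM in the TIC library against 0.0329 FPKM in NTC, and Wnt10a had 2.82 FPKM in TIC but a listed 0 in NTC.

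For each measured member, the genes with the most similar pair of levels were sought by Euclidean distance on the log2(FPKM + 1) scale over the 2 libraries. With 2 points a gene, such likeness is a description of the levels alone. Nearest to Gli3 were Prkg1 (18.7 FPKM in the TIC library against 3.43 FPKM in NTC, distance 0.0071) and Runx2 (19.3 in TIC against 3.41 FPKM in NTC, distance 0.042). Nearest to Gli2 were Ak1 (4.06 in TIC against 0.456 FPKM in NTC, distance 0.026) and Msl3l2 (3.89 in TIC against 0.416 FPKM in NTC, distance 0.037), and nearest to Dhh were Unc5c (3.14 in TIC against 0.139 FPKM in NTC, distance 0.0097) and Fam19a5 (3.22 in TIC against 0.116 FPKM in NTC, distance 0.039). Ptch1 was nearest to Sestd1 (9.0 in TIC against 14.4 FPKM in NTC, distance 0.026) and Rif1 (8.68 in TIC against 14.6 FPKM in NTC, distance 0.027). Smo was nearest to Actn1 (57.5 in TIC against 40.5 FPKM in NTC, distance 0.025) and Pdgfc (58.1 in TIC against 40.3 FPKM in NTC, distance 0.026), and Sufu to Maml1 (19.9 in TIC against 14.1 FPKM in NTC, distance 0.012) and Nck1 (20.3 in TIC against 14.4 FPKM in NTC, distance 0.034).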
